A study of Mus musculus with 3 samples.

Results

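The genes described here are 10 genes that are induced or kept up downstream of the T cell receptor and of the transcription factor NFAT, namely *Nr4a1*, *Nr4a2*, *Nr4a3*, *Egr1*, *Egr2*, *Egr3*, *Tox*, *Tox2*, *Snx9* and *Cblb*. They are a list of names drawn up with earlier results of these data in view, and are 10 of the 25759 genes counted in each library. RNA-seq was done on follicular regulatory T (TFR) cells, in 3 libraries with 1 library for each genotype. N is the NFATc1-deficient library by its label, with the genotype *Nfatc1* fl/fl.*Prdm1* gfp/+.FIC. The genotype of αA was *Nfatc1* caaA.*Prdm1* gfp/+.FIC, so that Tregs make a constitutively active form of NFATc1/αA. PαA is by its label NFATc1/αA-overexpressing and Blimp-1-deficient, with the genotype *Nfatc1* caaA.*Prdm1* gfp/fl.FIC. There a floxed allele, which Cre can delete, takes the place of the wild-type allele of *Prdm1*, the gene of the repressor Blimp-1. FIC stands for Foxp3-IRES-Cre, so that Cre is made in all cells that express *Foxp3* and not in TFR cells alone. All 3 genotypes share the FIC allele and 1 gfp reporter allele of *Prdm1*. No library from mice without FIC, and none from FIC mice with unaltered *Nfatc1*, was analysed here. All mice received 125 µg NP-KLH in alum, were boosted on day 7 and were used on day 10, when B220-CD4+CXCR5+GITRhi cells that were positive for the Blimp-1 reporter GFP were sorted. The sort thus took cells with an active *Prdm1* locus in every genotype. The age and the number of the mice behind each library are not given in the sources used here, and without replicates no spread between mice and no test can be given.

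NFAT proteins are kept in the cytoplasm by phosphorylation. Calcium influx after T cell receptor engagement activates the phosphatase calcineurin, which lets NFAT enter the nucleus. There NFAT works with partners such as AP-1 at genes of effector function, while NFAT with little AP-1 is known to drive genes of anergy and exhaustion, among them those of the NR4A, EGR and TOX families. The NR4A factors are orphan nuclear receptors, EGR factors are zinc finger proteins and TOX factors carry an HMG box. In regulatory T cells NR4A factors are known to support *Foxp3* expression, and follicular T cells are known for high *Tox* and *Tox2*.

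N had a total of 29726219 reads, αA 27239921 and PαA 25465829, and exons took 27637953, 24258845 and 23269443 of them. Levels are given as RPKM, in which the exon reads of a gene are divided by its exon length and by the size of the library. Triplets of values below are in the order N, αA, PαA. The RPKM of the targeted gene *Nfatc1* was 63.6 in N, 62.9 in αA and 32.4 in PαA. By these exon reads N was not below αA, and PαA had the lowest level, which goes against the labels. Between αA and N the log2 ratio of *Nfatc1* was -0.02 by exon reads, 0.16 by reads on exon-exon junctions (95% counting interval 0.05 to 0.26) and -0.56 by intron reads (-0.77 to -0.36). Reads on single exons, from which a floxed deletion or a transgene could be read, were not analysed here. Therefore N, αA and PαA stand for the library labelled N and those labelled αA and PαA, and every direction between them rests on these labels. *Prdm1* reached 25.6, 24.9 and 10.0 RPKM. It was 2.48-fold lower in PαA than in αA by exon reads, whereas 182, 165 and 207 of its reads lay in introns.

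RNA of the markers of the sorted cells was present. All 11 genes taken as TFR markers passed an RPKM of 5 in 1 library or more, and none was at 0. *Cd4*, *Cxcr5*, *Tnfrsf18* and *Prdm1* among them belong to the sort gates, so that their presence was set by the sort. *Cd4* reached 488, 396 and 341 RPKM. *Foxp3*, the lineage factor of Tregs, had 32.7, 20.9 and 15.3, *Cxcr5*, the follicle-homing receptor, 48.3, 81.3 and 47.6, and *Tnfrsf18*, which encodes GITR, 303, 217 and 145. *Bcl6*, the follicular repressor, was low with 9.16, 5.96 and 4.71, and so did not reach an RPKM of 5 in PαA. Among the markers 0 were more than 2-fold apart between αA and N, where 1.44% of all expressed genes, defined below, were higher and 2.81% lower. At any ratio PαA was lower than αA (56.9% of all expressed genes) and lower than N (66.4%) for all 11. By more than 2-fold it was so for 2 (2.45% of all) and 5 (7.77%) of them, with medians of -0.49 and -0.96 on the log2 scale.

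Transcripts that mark other cell types were present and differed between the libraries. Genes of red cells had a summed RPKM of 293 in N, 1137 in αA and 1073 in PαA, led by *Hbb-bs*. Plasma cell genes had 92.0, 111 and 152, with *Jchain* at 44.3, 58.4 and 94.8 and *Sdc1* at 0.74, 1.03 and 5.97, while *Tnfrsf17* was at 0 in PαA. Myeloid genes had 294, 199 and 289, led by *Lyz2*, with *S100a9* at 0 reads in αA. B cell genes had 16.3, 13.1 and 14.7, led by *Cd79b*, with *Fcer2a* at 0 in PαA, and dendritic cell genes 1.95, 1.61 and 3.23, led by *Itgax*. CD8 genes had 9.27, 14.1 and 8.14, led by *Cd8b1*, with *Cd8a* at 0.19, 2.10 and 2.90, and NK cell genes 6.50, 5.50 and 9.18, led by *Eomes* in N and by *Klrb1c* in the others. Of the markers of these 7 other cell types, 1 of 8 B cell, 3 of 4 plasma cell, 7 of 8 myeloid, 0 of 4 dendritic, 1 of 2 CD8, 1 of 3 NK and 3 of 3 red cell genes passed the same level of 5. *Itgam* was not analysed here. The part of these cells in the values below was not tested. In such bulk samples, fewer cells that express a gene and less of its RNA in each cell cannot be told apart.

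Across the 10 genes, the levels in PαA were the lowest of the 3 libraries for 9, the exception being *Nr4a2*. How many of all expressed genes had their lowest level in PαA was not counted. Most of them stood below αA there (56.9%), and most below N (66.4%). Expressed genes were those that passed an RPKM of 5 in 1 library or more, which were 7017 in all and 9 of the 10, again without *Nr4a2*. A ratio of more than 2-fold was taken as passing the filter. Between αA and N, 0 of the 9 genes passed in either direction, against 1.44% of all expressed genes that were higher and 2.81% that were lower. Between PαA and αA, *Nr4a3*, *Egr1*, *Egr2* and *Snx9* passed as lower, 4 of 9, and 0 as higher, where 2.45% of expressed genes were lower and 2.18% higher. Between PαA and N, 6 of the 9 passed as lower, the same 4 with *Nr4a1* and *Egr3*, and 0 as higher, where 7.77% of expressed genes were lower and 2.57% higher. These 6 became 4 when the libraries were scaled by TMM factors of edgeR or by size factors from the median of ratios, or ratios centred on genes of the same exon length, which lose *Egr1* and *Egr3*. The 7.77% holds for scaling to library totals, and the share of all expressed genes under these alternatives was not counted. By junction reads, *Nr4a3*, *Egr3* and *Snx9* and neither *Egr1* nor *Egr2* were more than 2-fold lower in PαA than in αA. The 2.45% above is by exon reads, and the share of all expressed genes past 2-fold by junction reads was not counted. At any ratio, 7 of 9 were lower in αA than in N (68.1% of all expressed genes), 9 of 9 in PαA than in αA (56.9%) and 9 of 9 in PαA than in N (66.4%). The 3 comparisons share their libraries and are not independent of each other. PαA and N differ in genotype at both *Nfatc1* and *Prdm1*, whose parts in a ratio between them cannot be told apart. *Foxp3*, *Tnfrsf18*, *Prdm1*, *Ctla4* and *Pdcd1* of the TFR markers were more than 2-fold lower in PαA than in N as well, and the part of the cells they mark in these counts was not tested.

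**Figure D1:**
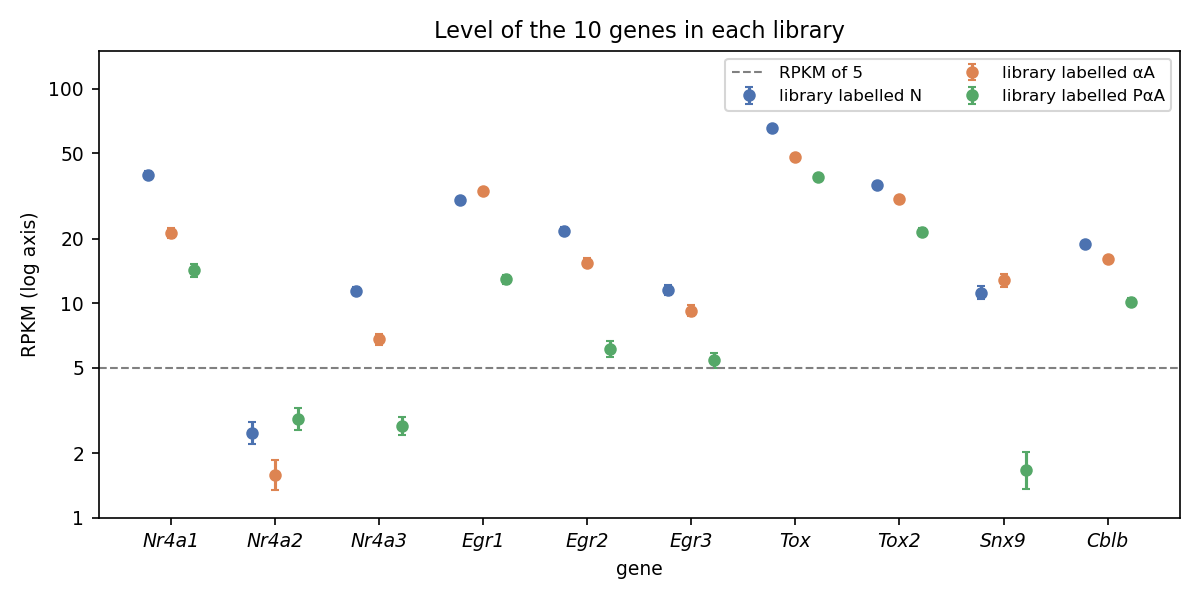
RPKM (log axis) of the 10 genes in the 3 libraries, with 1 point per library and exact Poisson 95% intervals that cover counting error only; the dashed line marks an RPKM of 5. For 9 genes the green point of PαA is the lowest of the 3, with *Snx9* at 1.68 in PαA against 12.8 in αA, while *Nr4a2* stays under 5 in every library.

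The median log2 ratio of the 9 expressed genes was -0.32 between αA and N, -0.77 between PαA and αA and -1.23 between PαA and N. The corresponding medians of all 7017 expressed genes were -0.14, -0.06 and -0.19. Hence the median of the 9 genes lay 0.18, 0.70 and 1.04 below that of all expressed genes. With the TMM factors of edgeR in place of the library totals, the median of all expressed genes moved to 0.03, 0.01 and 0.05, and the 9 genes lay 0.19, 0.71 and 1.05 below it. Such factors move all genes of a comparison alike and can hardly change this gap. Centring on genes of the same exon length, which can, left gaps of 0.14, 0.62 and 0.86.

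**Figure D2:**
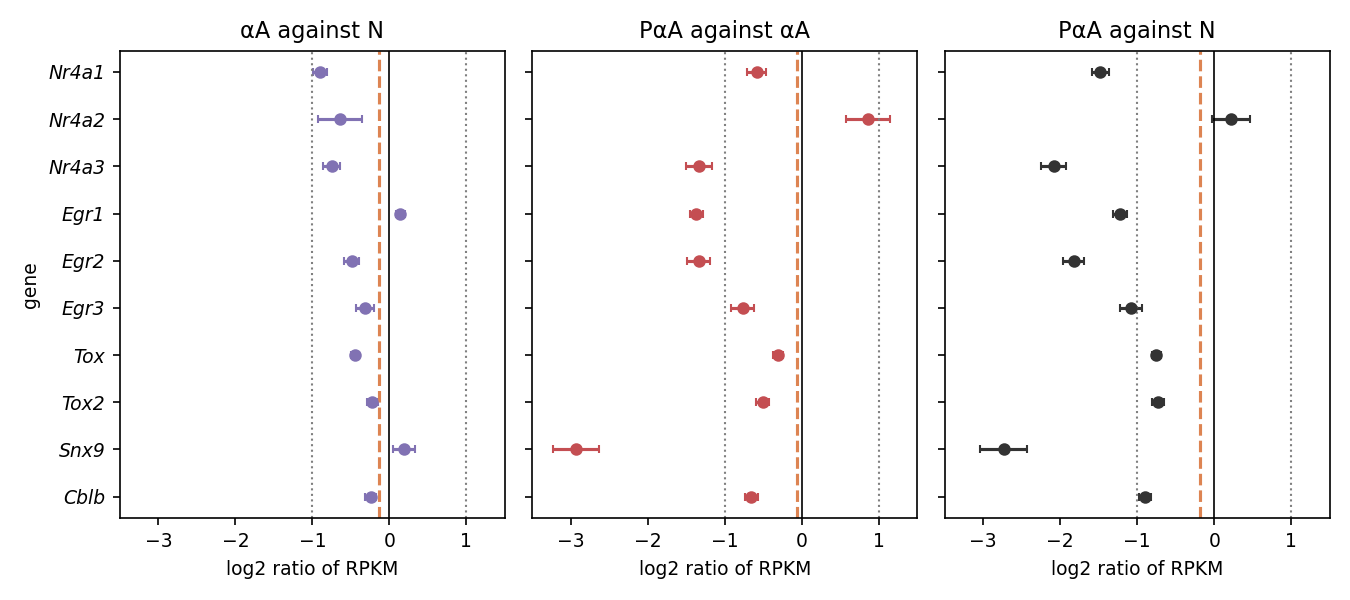
Log2 ratio of RPKM of each gene between the libraries named above each panel, with exact Clopper-Pearson 95% intervals from the reads of both libraries; dotted lines mark 2-fold and the dashed line the median of all expressed genes. No point passes 2-fold between αA and N, 4 do so between PαA and αA and 6 between PαA and N.

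The NR4A family was led by *Nr4a1* (Nur77), which is rapidly induced by T cell receptor signals and is widely used to report them. *Nr4a1* (ENSMUSG00000023034, GRCm38 chromosome 15 from 101266846 to 101274792) was counted with 2914, 1436 and 895 exon reads, and its RPKM was 39.6, 21.3 and 14.2. The level stepped down from N over αA to PαA, with counting intervals that did not overlap. The log2 ratio was -0.89 between αA and N (95% interval -0.99 to -0.80, here and below for counting error only), -0.58 between PαA and αA (-0.71 to -0.46) and -1.48 between PαA and N (-1.59 to -1.37). Thus *Nr4a1* was 2.79-fold lower in PαA than in N. It was the member with the smallest ratio between αA and N, at rank 282 from the lowest among the 7017 expressed genes.

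*Nr4a3* (NOR1; ENSMUSG00000028341, chromosome 4 from 48045153 to 48086447), which acts with *Nr4a1* in Treg development, had 1965, 1072 and 396 exon reads, with levels of 11.4, 6.79 and 2.68 RPKM. Here PαA stood apart and fell below an RPKM of 5, with αA between the others. The log2 ratio was -0.75 between αA and N (-0.86 to -0.64) and -1.34 between PαA and αA (-1.51 to -1.17). *Nr4a3* was 4.25-fold lower in PαA than in N, at rank 49 from the lowest. *Nr4a2* (Nurr1; ENSMUSG00000026826, chromosome 2 from 57106830 to 57124003) was low, with 276, 162 and 275 exon reads and levels of 2.48, 1.59 and 2.89 RPKM. It was lowest in αA, 0.64 on the log2 scale below N (interval -0.93 to -0.36), and did not differ between PαA and N beyond counting error (0.22, interval -0.03 to 0.46). Between PαA and αA the log2 ratio of *Nr4a2* was 0.86 (0.58 to 1.15). Its pattern by exon reads was therefore another one than that of its relatives, at a level where its exon-exon junction reads were 39, 12 and 50. Its intron reads, 40, 31 and 15, went the other way and were lower in PαA than in N (-1.19, interval -2.15 to -0.30). Summed per length, the 3 NR4A genes reached 53.5, 29.7 and 19.8 RPKM, of which *Nr4a1* held 74.0%, 71.8% and 71.8%.

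Promoters were taken from RefSeq (GRCm38.p6) as windows of 300 bases, from 250 before to 50 after a transcript start, to show the bases in front of genes whose levels differed in the same direction. The table held 14 windows for 6 of the 10 genes, several of which overlap. No window of *Egr1*, *Egr3*, *Tox* and *Snx9* was used here. The windows of *Nr4a1* (chr15:101266596-101266895, plus strand) and *Nr4a3* (chr4:48045055-48045354, plus strand) follow, as these are the expressed genes of the family. Capitals mark the NFAT core GGAAA on either strand and the EGR motif GCGGGGGCG or GCGTGGGCG on either strand.
Nr4a1: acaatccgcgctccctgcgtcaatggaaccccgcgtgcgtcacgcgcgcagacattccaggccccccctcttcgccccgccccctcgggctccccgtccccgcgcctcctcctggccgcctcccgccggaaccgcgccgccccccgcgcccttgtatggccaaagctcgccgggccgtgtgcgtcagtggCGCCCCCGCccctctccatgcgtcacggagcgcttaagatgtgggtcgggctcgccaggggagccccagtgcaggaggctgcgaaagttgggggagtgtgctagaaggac
Nr4a3: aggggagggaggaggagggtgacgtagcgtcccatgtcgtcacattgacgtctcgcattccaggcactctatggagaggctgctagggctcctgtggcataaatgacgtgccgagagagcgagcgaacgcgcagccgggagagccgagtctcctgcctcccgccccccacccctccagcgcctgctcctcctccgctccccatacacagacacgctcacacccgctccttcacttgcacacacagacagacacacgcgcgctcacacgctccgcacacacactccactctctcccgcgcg
The capitals of the *Nr4a1* window show 1 EGR motif, read on the minus strand, and the *Nr4a3* window has no capitals. An EGR motif was found in 3.47% of all 32851 windows of the table. No match says only that these letters are not in this window.

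Of the EGR family, which limits T cell activation through *Egr2* and *Egr3* and follows acute signals through *Egr1*, *Egr1* had the highest level per length in every library. *Egr1* (ENSMUSG00000038418, chromosome 18 from 34859823 to 34864984) was read 4029 times in N, 4083 times in αA and 1476 times in PαA on its exons, with 30.2, 33.4 and 12.9 RPKM. N and αA lay close together, with a log2 ratio of 0.15 (interval 0.08 to 0.21), and PαA lay apart from both. The log2 ratio between PαA and αA was -1.37 (-1.46 to -1.28), which is 2.59-fold lower. Against N it was -1.23 (-1.31 to -1.14).

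*Egr2* (ENSMUSG00000037868, chromosome 10 from 67535475 to 67542188), a factor of anergy that induces *Cblb*, had 2187, 1431 and 529 exon reads and 21.7, 15.5 and 6.11 RPKM. As for *Nr4a3*, the largest step was that from αA to PαA. The log2 ratio was -0.49 between αA and N (-0.58 to -0.39), -1.34 between PαA and αA (-1.49 to -1.19) and -1.82 between PαA and N (-1.96 to -1.69). *Egr2* was 3.54-fold lower in PαA than in N. *Egr3* (ENSMUSG00000033730, chromosome 14 from 70077203 to 70082614), the nearest relative of *Egr2* in function, had 1401, 1032 and 567 exon reads and 11.5, 9.23 and 5.43 RPKM. The order of the libraries was the same as for *Egr2*, with smaller steps. Its log2 ratio between PαA and N was -1.08 (-1.23 to -0.94), so that the interval included 2-fold. Summed per length, the EGR genes reached 63.4, 58.1 and 24.5 RPKM.

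The promoter window of *Egr2* with the most NFAT cores (chr10:67537316-67537615, plus strand) and a second window with a serum response CArG box (chr10:67537620-67537919, plus strand) are shown because *Egr2* had the largest difference of this family between PαA and N. Capitals have the meaning given above.
Egr2 with 3 cores: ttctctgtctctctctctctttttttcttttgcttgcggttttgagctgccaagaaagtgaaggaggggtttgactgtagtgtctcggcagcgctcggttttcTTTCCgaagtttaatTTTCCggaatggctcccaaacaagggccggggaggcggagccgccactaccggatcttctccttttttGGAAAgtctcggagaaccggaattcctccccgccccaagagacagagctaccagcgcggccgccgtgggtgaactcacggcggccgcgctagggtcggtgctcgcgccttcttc
Egr2 with 1 core: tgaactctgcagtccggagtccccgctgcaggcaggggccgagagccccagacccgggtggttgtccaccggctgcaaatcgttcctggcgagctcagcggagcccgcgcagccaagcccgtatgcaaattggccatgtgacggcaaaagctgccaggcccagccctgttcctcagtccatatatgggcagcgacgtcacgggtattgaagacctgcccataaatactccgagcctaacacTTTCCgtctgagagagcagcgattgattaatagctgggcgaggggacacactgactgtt
The first of these windows holds 3 NFAT cores and the second 1. A CArG box stood in 4 of the 5 *Egr2* windows, 3 of which overlap, and in 1.63% of all windows. Over all 14 windows of the 6 genes, the NFAT core stood in 8 (57.1%), against 61.3% of all windows, a share near that of promoters at large. The longer forms GGAAAAT or GGAAAAA, which contain the core, stood in 1 of 14 against 12.1%. The Blimp-1 core GAAAG, which overlaps the NFAT core wherever GGAAAG occurs, stood in 8 of 14 against 57.3%. The AP-1 motif TGACTCA or TGAGTCA (5.20% of all windows), the cAMP response element TGACGTCA (1.79%) and the NR4A motif AAAGGTCA (1.51%) stood in 0 of the 14, all counted on both strands. Such matches are letters in a window and were not tied to binding here.

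*Tox*, a factor of persistently stimulated and of follicular T cells, had the highest level per length of the 10 genes in every library. *Tox* (ENSMUSG00000041272, chromosome 4 from 6686353 to 6991557) was covered by 7691, 5190 and 3915 exon reads, at 65.3 RPKM in N, 48.1 in αA and 38.8 in PαA. The 3 levels were ordered as those of *Nr4a1*, but within 2-fold. The log2 ratio was -0.44 between αA and N (-0.49 to -0.39), -0.31 between PαA and αA (-0.37 to -0.25) and -0.75 between PαA and N (-0.81 to -0.70). *Tox2* (ENSMUSG00000074607, chromosome 2 from 163203125 to 163324170), which supports the follicular helper program, had 3602, 2829 and 1859 exon reads and 35.6, 30.5 and 21.5 RPKM. Its log2 ratio between PαA and N was -0.73 (-0.81 to -0.65), close to that of *Tox*. Summed per length, both genes reached 101, 78.6 and 60.3 RPKM. The TOX family thus differed least of the 3 families between PαA and N, with a summed log2 ratio of -0.74 against -1.44 for NR4A and -1.37 for EGR.

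*Snx9* had the smallest ratio of the members between PαA and αA and between PαA and N. It encodes a sorting nexin that acts in endocytosis and at the T cell synapse, and is known as a gene of exhausted T cells. *Snx9* (ENSMUSG00000002365, chromosome 17 from 5841328 to 5931033) had 801 exon reads in N and 838 in αA, but 103 in PαA, at 11.2, 12.8 and 1.68 RPKM. N and αA lay close together, αA being higher (log2 ratio 0.19, interval 0.05 to 0.33), and PαA was far below both. The log2 ratio was -2.93 between PαA and αA (-3.24 to -2.63), a 7.61-fold lower level, and -2.74 between PαA and N (-3.05 to -2.44). Among the 7017 expressed genes *Snx9* stood at rank 8 from the lowest between PαA and αA and at rank 25 between PαA and N.

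*Cblb* (ENSMUSG00000022637, chromosome 16 from 52031225 to 52208048), an E3 ubiquitin ligase that raises the threshold of T cell activation and a hallmark of anergy, had 3972, 3074 and 1824 exon reads and 18.9, 16.0 and 10.2 RPKM. PαA was again the lowest library, within 2-fold of the others. The log2 ratio was -0.24 between αA and N (-0.31 to -0.18), -0.66 between PαA and αA (-0.74 to -0.57) and -0.90 between PαA and N (-0.98 to -0.82). *Cblb* has the longest exon sequence of the 10 genes, and after centring on genes of the same exon length its ratio between αA and N turned to 0.08 and that between PαA and N was -0.32. Its promoter window (chr16:52031299-52031598, plus strand) holds 2 NFAT cores, in capitals as TTTCC on this strand.
Cblb: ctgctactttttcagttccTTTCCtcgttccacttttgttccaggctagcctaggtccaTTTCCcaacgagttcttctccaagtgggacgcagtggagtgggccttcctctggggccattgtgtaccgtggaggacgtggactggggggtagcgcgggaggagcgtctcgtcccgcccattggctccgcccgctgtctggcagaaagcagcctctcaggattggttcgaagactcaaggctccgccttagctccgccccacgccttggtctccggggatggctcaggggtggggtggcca

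**Figure D3:**
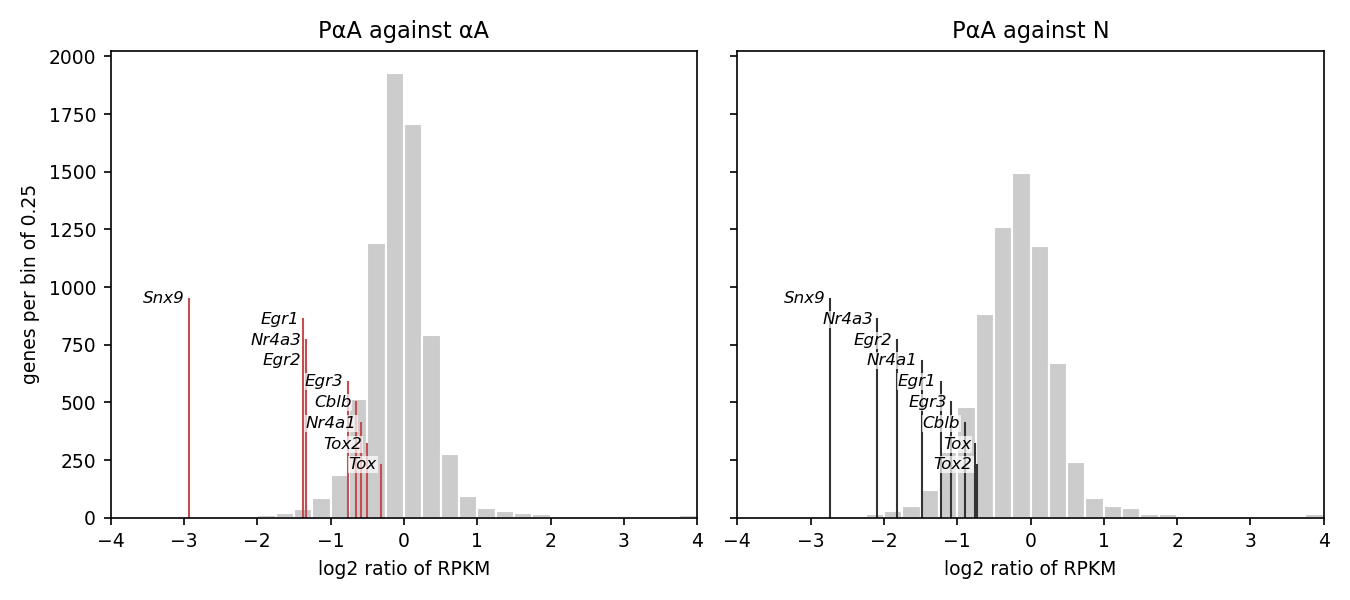
Number of expressed genes (7017) per bin of 0.25 of the log2 ratio of RPKM between PαA and αA (left) and PαA and N (right), with genes beyond 4 in either direction counted in the end bins and the 9 expressed members marked by lines of arbitrary height. *Snx9* lies at -2.93 and -2.74 and *Tox* at -0.31 and -0.75, and all 9 lines lie below 0.

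The libraries also hold counts of reads that span exon-exon junctions and of reads in introns, which the RPKM does not use separately. Junction reads come from spliced RNA, whereas intron reads can come from unspliced RNA, genomic DNA or exons outside the annotation, whose shares were not tested. Scaled to the library total, the sum of all junction reads was 0.06 higher on the log2 scale in PαA than in N and the sum of all intron reads 0.09 higher, while all intron reads were 0.51 higher in αA than in N. By junction reads, the 9 expressed members were lower in PαA than in N beyond counting error, as were 45.3% of all expressed genes. By exon reads this held for the same 9 and for 56.7% of all. *Snx9* had 321, 354 and 25 junction reads, and its log2 ratio between PαA and αA was -3.73 (-4.37 to -3.14). For *Nr4a3* the junction reads were 139, 81 and 23 (PαA against N -2.37, interval -3.08 to -1.73). *Egr1* and *Egr2* have few junction reads, 76, 66 and 41 for *Egr1* and 58, 23 and 13 for *Egr2*. Their ratio between PαA and αA by junction reads was -0.59 (-1.19 to -0.01) for *Egr1* and within counting error for *Egr2* (-0.73, interval -1.83 to 0.32). The drop of *Egr1* was thus smaller by junction reads than by exon reads, beyond the intervals of both.

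Intron reads of *Tox* did not follow its exon reads. They were 1433 in N, 1149 in αA and 1410 in PαA, which is 15.7%, 18.1% and 26.5% of all reads of the gene. While exon reads of *Tox* were lower in PαA than in N, its intron reads were 0.20 higher on the log2 scale (0.09 to 0.31). Between PαA and αA its intron reads were 0.39 higher (0.28 to 0.51), where those of all genes together were 0.42 lower. *Cblb*, with 329, 342 and 231 intron reads, was lower in PαA than in N by both readouts, and its ratio by intron reads was -0.29 (-0.54 to -0.04). *Snx9* had 33, 158 and 21 intron reads. Its intron reads in αA were thus 5.22-fold above those in N, where its exon reads differed by 0.19 on the log2 scale. *Nr4a3* had 25, 53 and 15 intron reads, which were 1.21 higher on the log2 scale in αA than in N (0.50 to 1.96), where its exon reads were lower. *Nr4a1* had 32, 15 and 0 intron reads, in the order of its exon reads. The 3 EGR genes had at most 11 intron reads in a library.

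**Figure D4:**
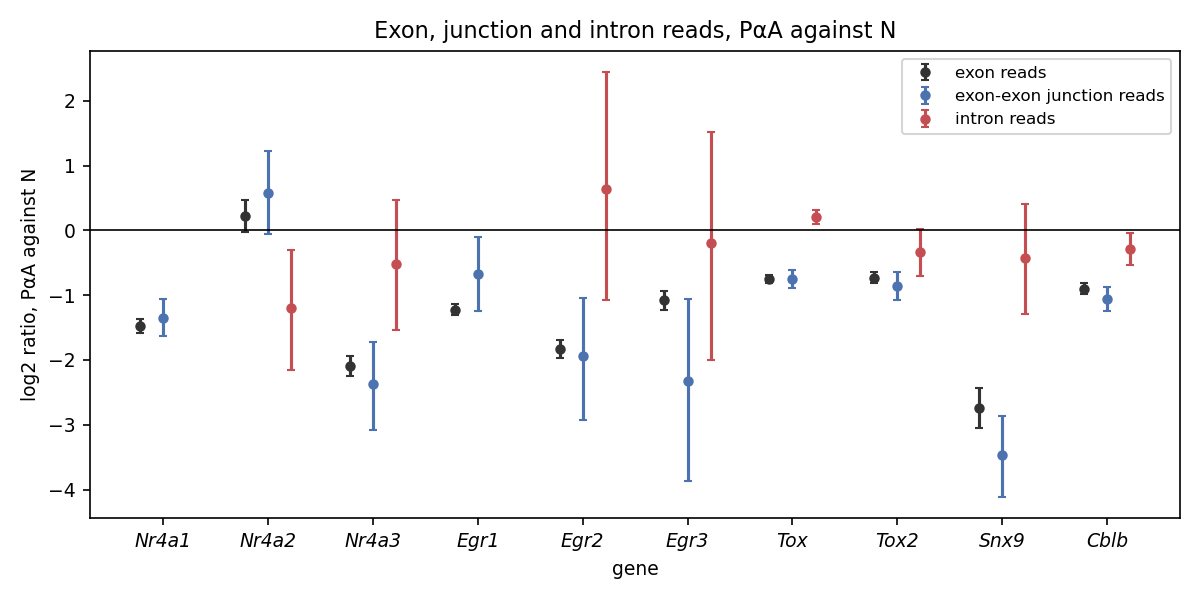
Log2 ratio between PαA and N of exon, junction and intron reads of the 10 genes, scaled to the library totals, with exact Clopper-Pearson 95% intervals; intron ratios are not drawn for *Nr4a1*, with 0 intron reads in PαA, and *Egr1*, with 0 in both. Exon and junction points lie below 0 for 9 genes, whereas the intron point of *Tox* lies at 0.20.

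The relatives and partners of these genes were read out next, from lists of genes grouped by textbook role and also drawn up with earlier results in view. Of 9 family relatives, 5 were expressed. *Nab2*, a corepressor that binds EGR factors and is itself a target of them, had 20.2, 17.0 and 9.44 RPKM and was the 1 relative of 5 more than 2-fold lower between PαA and N, beside 7.77% of all expressed genes (log2 ratio -1.10, interval -1.22 to -0.97). *Nab1*, its paralogue, had 34.3, 26.9 and 22.7, and *Cbl*, the relative of *Cblb*, 11.3, 12.4 and 6.48. *Tox4* had 25.2, 21.6 and 16.6. The medians of the 5 genes were -0.25, -0.57 and -0.80 for αA against N, PαA against αA and PαA against N. *Egr4* had 26, 0 and 3 reads, and *Tox3* and *Cblc* had 0 reads in each library, which allows up to 3 reads.

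Of 14 genes of calcineurin-NFAT signaling, 10 were expressed, with medians of -0.20, -0.19 and -0.31 in the 3 comparisons. *Rcan1*, an inhibitor of calcineurin whose short transcript is a classic NFAT target, had 7.20, 6.77 and 7.15 RPKM. Its log2 ratio between PαA and N was -0.01 (-0.19 to 0.17). *Nfatc2* had 13.7, 11.8 and 8.64 and *Nfatc3* 43.1, 38.2 and 30.6, both within 2-fold. Of the catalytic subunits of calcineurin, *Ppp3ca* had 13.7, 6.49 and 5.32, *Ppp3cb* 21.9, 19.8 and 18.0 and *Ppp3cc* 12.5, 16.3 and 23.0. *Ppp3ca* was more than 2-fold lower in αA and in PαA than in N. It was the 1 of 10 in each comparison, beside 2.81% and 7.77% of all expressed genes.

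Immediate early genes share signals with the EGR and NR4A genes. Of 29 listed, 23 were expressed, with medians of -0.08, -0.31 and -0.36. At any ratio 18 of the 23 were lower in PαA than in αA (56.9% of all expressed genes) and 19 lower than in N (66.4%). *Fos* had 6.62, 6.67 and 5.89 RPKM, *Jun* 6.87, 5.81 and 6.66 and *Ier2* 60.5, 58.6 and 67.5. These 3 genes stayed within 2-fold where *Egr1* was 2.59-fold lower in PαA than in αA. *Dusp1*, a phosphatase that switches off MAP kinases, had 44.6, 58.6 and 20.5, and *Dusp6*, which acts on ERK, 18.9, 28.4 and 13.8. Both were more than 2-fold lower in PαA than in αA (2 of 23, beside 2.45% of all expressed genes). *Dusp1* and *Zfp36l1*, an RNA decay factor, were so against N (2 of 23, near the 7.77% of all expressed genes). *Cd69*, an early activation marker, had 56.7, 52.9 and 33.8.

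Of 21 genes of anergy and of T cell receptor restraint, 17 were expressed. Their medians were -0.10, -0.15 and -0.34, beside -0.14, -0.06 and -0.19 for all expressed genes. PαA was lower than αA and lower than N at any ratio for 15 of 17 each, beside 56.9% and 66.4% of all expressed genes. Between PαA and αA 1 of 17 was more than 2-fold lower (2.45% of all), *Spry1*, an inhibitor of receptor signaling, with 6.47, 8.53 and 3.26 RPKM. In the other comparisons 0 of 17 passed 2-fold. Of all expressed genes 1.44% were higher and 2.81% lower between αA and N, and 2.57% and 7.77% between PαA and N. The ubiquitin ligase *Itch* had 16.3, 10.7 and 11.7 and the kinase *Dgka* 68.3, 69.6 and 62.8. Between PαA and αA their log2 ratios were 0.13 and -0.15, beside -0.66 for *Cblb*. Other genes of this list lay closer to *Cblb*, such as *Ptpn22* with -0.62 and *Dtx1* with -0.52. *Dgkz*, also of the diacylglycerol kinases that blunt the signal, had 69.7, 59.9 and 44.9.

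A last list held receptors and factors that accompany TOX and NR4A in chronically stimulated T cells. Of 15 listed, 14 were matched and 13 were expressed, with medians of -0.12, -0.54 and -0.81. Between PαA and αA, *Tigit*, *Ctla4*, *Entpd1* and *Tnfrsf9* were more than 2-fold lower (4 of 13, beside 2.45% of all expressed genes). Between PαA and N the same held for *Pdcd1*, *Lag3*, *Ctla4* and *Tnfrsf9* (4 of 13, beside 7.77%). In either comparison 0 of 13 were more than 2-fold higher, beside 2.18% and 2.57% of all expressed genes. At any ratio 10 and 12 of the 13 were lower, beside 56.9% and 66.4%. *Pdcd1*, which encodes PD-1, had 341, 205 and 147 RPKM, stepping down in both steps like *Nr4a1*. *Ctla4*, a coinhibitory receptor, had 148, 188 and 58.7, highest in αA like *Snx9* and *Egr1*, and *Tigit*, another such receptor, had 526, 732 and 301. *Lag3*, a receptor for MHC class II, had 330, 281 and 164. *Tnfrsf9* (4-1BB) had 140, 91.2 and 30.9, but 25.6% of its exon reads in N were unique to it, so that its values are uncertain. With the opposite order of the libraries, *Tcf7*, which encodes TCF-1 and is known to be repressed during terminal differentiation, had 150, 203 and 244 and a log2 ratio of 0.70 between PαA and N (0.66 to 0.73). *Batf* had 141, 131 and 135. *Pdcd1* and *Ctla4* were also among the markers of the sorted cells.

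The genes with the most similar levels were looked up over the 3 libraries, as the distance between centred log2 RPKM values among 6888 genes with enough reads. With 3 libraries such likeness is only a description of 3 values. Within a distance of 0.1 lay from 0% (*Snx9*) to 3.06% (*Tox*) of these genes. *Tox* had 211 genes within a distance of 0.1, *Tox2* 206, *Cblb* 90 and *Egr3* 61, whereas *Nr4a1* had 17, *Egr1* 5, *Egr2* 2 and *Nr4a3* 1. *Snx9* had 0, and its nearest gene was *Gpr55*, a lipid receptor, at 0.31, with 18.8, 15.8 and 2.41 RPKM. The gene nearest to *Nr4a3* was *Rgs16*, a regulator of G protein signaling (52.5, 29.5 and 11.97 RPKM), at 0.059. Nearest to *Nr4a1* were *Parp14*, *Smc1a* and *Ly75*, to *Egr1* *Wdfy2*, *Ext1* and *Ephx1*, and to *Egr2* *Pmepa1*, *Fbxo11* and *Ccr3*. To *Egr3* they were *Hps4*, *Fkbp5* and *Mad1l1*, to *Tox* *Lman1*, *Stim2* and *Sf3b1*, to *Tox2* *Lcp1*, *Trim8* and *Arhgef6*, and to *Cblb* *Gaa*, *Zmym2* and *Jade2*. Next to *Rgs16*, *Nr4a3* was followed by *Gm45837* and *Clip2*, and next to *Gpr55*, *Snx9* by *Ncmap* and *Atp9a*.

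**Figure D5:**
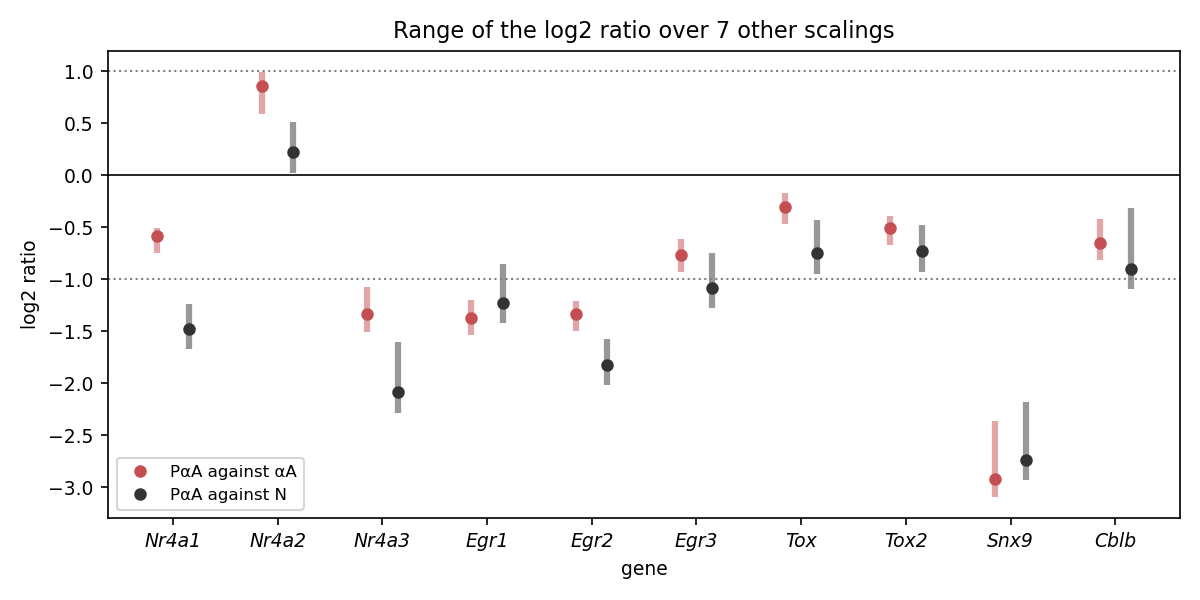
Log2 ratio of the 10 genes between PαA and αA and between PαA and N as points, with bars from the lowest to the highest value over 7 other scalings or read counts; dotted lines mark 2-fold. The bars of *Nr4a3*, *Egr1*, *Egr2* and *Snx9* between PαA and αA lie wholly below -1, whereas those of *Egr1*, *Egr3* and *Cblb* between PαA and N cross it.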

How the data were processed

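The authors prepared poly(A) libraries from sorted TFR cells and sequenced single reads. They trimmed and aligned the reads to GRCm38 and counted them in CLC Genomics Workbench 12 with default settings. The annotation release is not given in the sources used here. The deposited counts are whole numbers of exon, junction and intron reads for each gene, and are not normalized. The authors also deposited RPKM and TPM, in which RPKM is exon reads divided by exon length and library size and TPM is RPKM rescaled to 1 sum. Of 25759 genes, 3715 with an exon length of 0 were not used. For all 10 members 100% of the exon reads were unique, and no other gene of the files overlapped them.

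The authors' filter, an expression value above 5 in at least 1 library and a ratio above 2, was applied with the value read as RPKM. The deposited column of that name holds exon reads. Read so, 14591 genes with all 10 members pass the level, and 13.9%, 16.2% and 20.0% of them are more than 2-fold lower in αA against N, PαA against αA and PαA against N. Ratios have exact Clopper-Pearson and single levels exact Poisson 95% intervals, which cover counting error only, since PCR reads without molecular identifiers are not independent molecules. A count of 0 allows up to 3 reads. With 1 library per genotype no test was run, and every interval compares libraries, not genotypes. The members and the lists were chosen with earlier results of these data known. All members, *Nfatc1*, *Prdm1* and the genes of the lists were open to naming, and for each expressed member the 3 nearest genes by level, among genes with at least 100 exon reads in each library. The comparison of αA and N and that of PαA and αA follow the study. PαA against N, which differ at both *Nfatc1* and *Prdm1*, was added. Alternatives were TPM, unique exon reads, size factors from the median of ratios, TMM factors (edgeR 4.0.16 under R 4.3.3), 1 or 0.1 added to each RPKM as pseudocount, a lowess centring on genes of the same exon length (fraction 0.3), and other limits of level, fold and reads. Junction reads in place of exon reads and a level of 5 exon reads were added after the data were seen. The ratios and the filter were tested on simulated counts. Protein identity within the families was planned and not run. Python 3.11.15 was used with scipy 1.17.1, numpy 2.4.6, statsmodels 0.14.6, matplotlib 3.10.9 and pandas 2.3.3.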

Additional observations from a re-analysis of the deposited data

How the results depend on the processing

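Over 7 other scalings or read counts, 1 of 210 values of single genes changed its sign, *Cblb* between αA and N, which was 0.08 after length centring. The median of the 9 genes between αA and N, -0.32 as reported, was -0.15 with TMM factors, -0.14 with size factors from the median of ratios and -0.13 after length centring. Between PαA and N, -1.23 as reported, it was -0.997 with TMM factors, -0.98 with size factors and -0.85 after length centring. With TPM *Nr4a2* passed the level of 5 as well, and the medians of these 10 genes were -0.41 and -1.35 in these 2 comparisons. At 1.5-fold in place of 2-fold, 2 genes passed between αA and N (*Nr4a1* and *Nr4a3*), 6 between PαA and αA and 9 between PαA and N. At 3-fold, 1 gene passed between PαA and αA (*Snx9*) and 3 between PαA and N (*Nr4a3*, *Egr2* and *Snx9*). The shares of all expressed genes past 1.5-fold and past 3-fold were not counted. Between PαA and N the count was 4 with TMM factors, size factors and length centring, 5 with a pseudocount of 1, which loses *Egr3*, and 7 with TPM, which adds *Cblb*. Under these scalings the share of all expressed genes past 2-fold was not counted. Between PαA and αA, *Nr4a3*, *Egr1*, *Egr2* and *Snx9* passed 2-fold in all 7. With junction reads, an alternative chosen after seeing the data, 1 gene passed between αA and N (*Egr2*), 3 between PαA and αA (*Nr4a3*, *Egr3* and *Snx9*) and 6 between PαA and N, where *Cblb* replaced *Egr1*. No share of all expressed genes past 2-fold was counted by this readout. A level of 5 exon reads in place of RPKM, also added then, left the 3 counts at 0, 4 and 6. The shares of all genes more than 2-fold lower did not stay the same. At this level, which many more genes pass, they were larger than by RPKM in each comparison, as given with the authors' filter. The same counts therefore stand out less from all genes at this level. The cause of these shifts was not tested. No paired analysis was possible because each genotype has 1 library. The depth limits *Nr4a2*, *Egr4* and the junction and intron reads of the EGR genes, and no statement on mice or genotypes can be drawn from 1 library each.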
